A study of Mus musculus with 24 samples.

Results

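The epidermal growth factor (EGF) family was followed through the oesophagus of mice with and without the transcription factor Nrf2 and with and without reflux. The genes were the ligands Areg, Ereg, Hbegf, Tgfa, Btc and Egf and the receptors Egfr, Erbb2 and Erbb3. They were found by their gene names among the non-control probes of the array, which gave 9 genes with 22 probes, of 28104 gene names with 41174 probes. All 9 genes passed the filter on dim probes, as did 20537 genes in all.

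The samples came from male C57BL/6J mice, 12 weeks old, that were either wild type or Nrf2-/-, lacking Nrf2 in every cell. The 8 groups of 3 arrays were Nrf2-/- and wild type mice with gastric, duodenal or mixed reflux for 4 weeks, and Nrf2-/- and wild type mice without reflux. The Nrf2-/- mice were bred by the submitters and genotyped by PCR, per the labels. The labels disagree on the tissue: the tissue field says whole oesophagus for 7 groups and epithelium for Nrf2-/- mixed reflux, whereas the source names say epithelium for all 8. Each array compared oesophageal RNA, labelled with Cy5, to a commercial pool of RNA from 11 mouse cell lines, labelled with Cy3, with no dye swap. Values are log2 ratios of Cy5 over Cy3, so they place a gene's groups in order but do not set one gene's level against another's.

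EGF family ligands are made as membrane-anchored precursors, and proteases such as Adam17 cut them free. A released ligand pairs receptors of the Egfr and Erbb group on the same or a neighbouring cell, and the paired kinases start the Ras and ERK cascade and the PI3 kinase pathway. In squamous epithelia this signalling drives the growth and migration of basal keratinocytes, and several ligand genes are switched on when the epithelium is wounded or inflamed. Areg, Tgfa, Egf and Epgn bind Egfr, while Hbegf, Btc and Ereg bind both Egfr and the relative Erbb4. Erbb2 has no known ligand and Erbb3 has a weak kinase, and both signal mainly as partners in receptor pairs.

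The sequence that reports Areg, the member with the widest range here, is the 60-base probe below, which lies on chromosome 5 at 91570090 to 91570149 on the plus strand (mm9, per the file headers). The next sequences are an Erbb2 and an Erbb3 probe from the stretch of each gene that encodes the kinase. They are shown because the receptors are related in sequence. The capitals mark the 35 bases, of 56 aligned without gaps (62.5%), that the pair share. These 2 probes lie at chr11:98295824-98295883 on the plus strand and at chr10:128009195-128009254 on the minus strand (mm9), and neither is the probe whose values stand for its gene. The last sequence is the 250 bases before the start of Areg, at chr5:91139349-91139598 on the plus strand of GRCm38.p6, from RefSeq, with a cyclic AMP response element (CRE) in capitals.
Areg probe: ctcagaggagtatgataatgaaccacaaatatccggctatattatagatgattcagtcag
Erbb2 kinase probe: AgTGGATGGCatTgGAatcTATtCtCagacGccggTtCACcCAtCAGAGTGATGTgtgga
Erbb3 kinase probe: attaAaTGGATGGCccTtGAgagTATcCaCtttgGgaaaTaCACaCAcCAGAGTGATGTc
Areg upstream: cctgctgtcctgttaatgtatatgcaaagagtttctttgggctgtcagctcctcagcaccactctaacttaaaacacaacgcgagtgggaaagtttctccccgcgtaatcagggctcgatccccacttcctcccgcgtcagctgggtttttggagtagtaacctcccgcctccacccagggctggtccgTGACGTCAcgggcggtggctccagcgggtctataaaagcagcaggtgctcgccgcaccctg

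A set of 3 motifs was searched on both strands of the 250 bases before each gene start: the CRE (TGACGTCA), the AP-1 site (TGANTCA) and the core of the antioxidant response element that Nrf2 binds (TGACNNNGC). Of all 32851 promoters in the table, 1.55% held the CRE, 6.75% the AP-1 site and 10.2% the antioxidant response element core. Promoters were in the table for 6 members (7 windows). Areg held 1 CRE, which begins 61 bases before the start and overlaps no other motif, and held neither of the other motifs. Tgfa, Btc, Egf, Egfr and Erbb2 held none of these letters in their windows. The match is a description of the letters and says nothing of binding.

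The probes that stand for the other members lie on chromosome 5 at 91521659 to 91521720 for Ereg and at 91786948 to 91787007 for Btc, so 3 ligand genes lie near each other there. Tgfa is read at chromosome 6, 86224838 to 86224897, and Egf at chromosome 3, 129380826 to 129380885. The receptors are read at chromosome 11, 16813815 to 16813874 for Egfr and 98298103 to 98298162 for Erbb2, and at chromosome 10, 128004749 to 128004808 for Erbb3 (all mm9). All of these probes were above background on 24 arrays, except that of Ereg, which was on 23, and no member was saturated.

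Across the 24 arrays the median Cy5 signal ran from 81.8 to 249 units and the share of probes above background from 56.8% to 74.1%. Nfe2l2, which encodes Nrf2, lay between -3.81 and -2.83 on the 12 Nrf2-/- arrays, against 1.45 to 2.18 on 10 wild type arrays (slide 1 gave no value), and its target Nqo1 separated the genotypes likewise. The 3 arrays of Nrf2-/- mixed reflux correlated at 0.996 to 0.997, against 0.711 to 0.991 for other pairs within a group, so their mean was used as 1 sample, for 22 samples in all. Comparisons with that group therefore set 1 sample against 3 and borrow the spread of the other groups. Where its arrays are said below not to overlap another group, that too counts as 1 sample. Nrf2-/- gastric reflux replicate 1 and Nrf2-/- duodenal reflux replicate 2 had the lowest median Cy5 of their genotype, 88.3 and 85.3, and stand apart for several members. They are called the low-Cy5 arrays below, and were chosen outside slide 1. Wild type without reflux replicate 2, on slide 1, was lower still at 81.8 and is not among them. Nrf2-/- gastric reflux replicate 2 carries a male label but had a Ddx3y ratio of -4.20, while Ddx3y, a Y-linked gene, was at least 0.16 on the other arrays. Arrays were scanned on 3 days. Nrf2-/- and wild type gastric reflux share no scan day, nor do wild type duodenal or mixed reflux and wild type without reflux, so for these pairs scan day and group cannot be told apart without borrowing from other groups. The basal keratinocyte markers (8 of 8) and smooth muscle markers (8 of 8) were above background on all arrays of every group, including Nrf2-/- mixed reflux. The squamous markers were too (9 of 9, with 8 of 9 in Nrf2-/- duodenal reflux).

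Areg and Hbegf were the members whose levels moved most, and every member that passed the test in any comparison was higher in the group named first. Without reflux, none of the 9 members differed between Nrf2-/- and wild type by limma's test (adjusted p under 0.05; 1 member at an unadjusted p under 0.05), where 0.17% of all genes passed. Under gastric reflux 4 of 9 were higher in Nrf2-/-, against 10.5% of all genes higher and 17.6% called in either direction. Under duodenal reflux 1 of 9 was higher (1.22% of all genes higher, 1.91% called in either direction), and under mixed reflux 2 of 9 were (2.29% and 3.46%). Averaged over the 4 conditions, 2 of 9 were higher in Nrf2-/- (5.84% and 8.17%). The members' median difference between genotypes was 0.43 with gastric, 0.13 with duodenal and 0.32 with mixed reflux, beside 0.11, 0.05 and 0.01 over all genes. Without reflux it was 0.24, beside 0.03 over all genes, so it was not confined to reflux.

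Against no reflux, duodenal reflux raised 2 of 9 members in Nrf2-/- (13.5% of all genes higher, 19.8% called in either direction) and 2 of 9 in wild type (7.35% and 10.3%). Mixed reflux raised 2 of 9 in Nrf2-/- (3.41% and 4.71%) and 0 of 9 in wild type (0.0536%, with 1 member at an unadjusted p under 0.05 by limma). Gastric reflux changed 0 of 9 in Nrf2-/- (0.579%, 1 member at an unadjusted p under 0.05) and 0 of 9 in wild type (4.13%, 2 members at an unadjusted p under 0.05). The share of members called by duodenal reflux in Nrf2-/- was near that of all genes. The response to reflux differed between the genotypes for 1 of 9 members under mixed reflux (0.925% of all genes higher, 1.31% called in either direction), and for 0 of 9 under gastric (1.76%, 1 at an unadjusted p under 0.05) and 0 of 9 under duodenal reflux (0.321%, 2 at an unadjusted p under 0.05). Comparisons that share a group are not independent of each other.

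**Figure D1:**
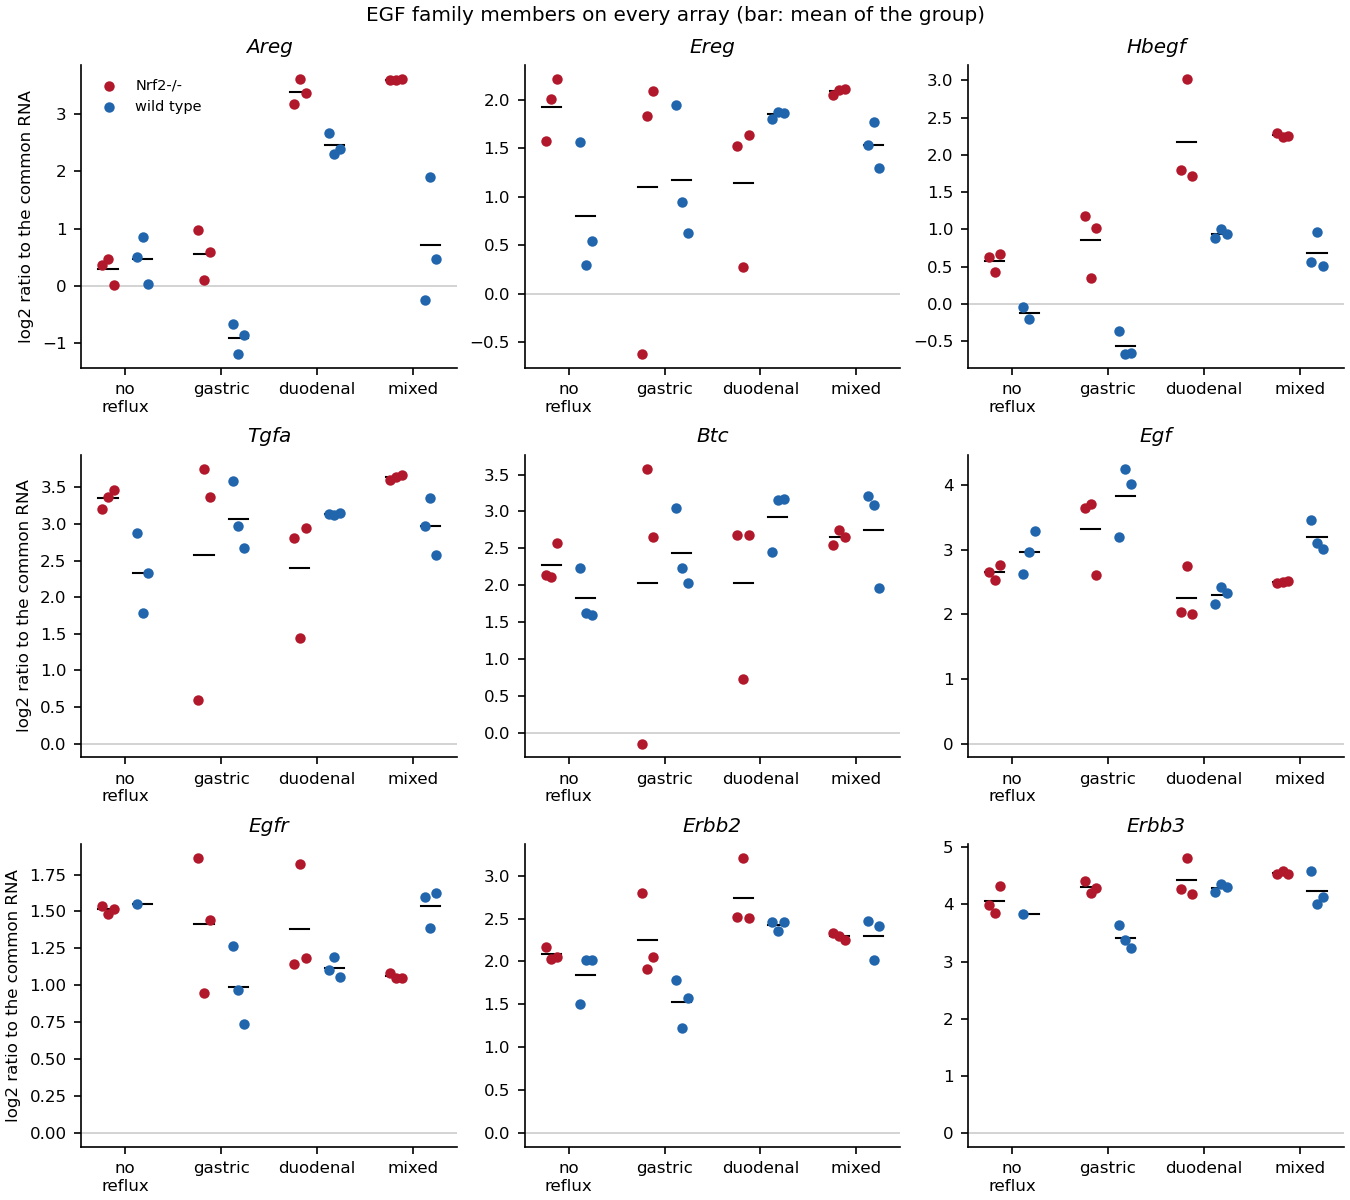
Log2 ratio of Cy5 over Cy3 (vertical axes) of each of the 9 members on every array, by reflux type (horizontal axes), with Nrf2-/- left of wild type. Points are arrays and bars are group means. Areg under duodenal and mixed reflux in Nrf2-/- lies between 3.19 and 3.62, above every other array.

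Areg encodes amphiregulin, a ligand of Egfr that keratinocytes and several immune cells release. Under mixed reflux its log2 ratio was 3.59, 3.60 and 3.62 on the Nrf2-/- arrays, against -0.24, 1.89 and 0.47 on the wild type arrays. Under duodenal reflux it was 3.19, 3.62 and 3.38 in Nrf2-/-, against 2.68, 2.31 and 2.40 in wild type. Neither pair of groups overlapped, and wild type mixed reflux replicate 2 stood well above the other 2 arrays of its group. Under gastric reflux the arrays read 0.98, 0.10 and 0.59 in Nrf2-/-, against -0.67, -1.20 and -0.86 in wild type, again with no overlap. Without reflux they read 0.36, 0.48 and 0.02 in Nrf2-/-, against 0.50, 0.85 and 0.03 in wild type, and the groups overlapped.

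Areg was thus 7.43-fold higher in Nrf2-/- than in wild type under mixed reflux (log2 difference 2.89 ± 0.54 (SE), adjusted p = 0.00584 by limma). It was 2.76-fold higher under gastric reflux (1.46 ± 0.38, adjusted p = 0.0173). The difference under duodenal reflux, 0.93 ± 0.38, did not pass (adjusted p = 0.211), nor did that without reflux, -0.18 ± 0.38 (0.947). In the mean of the 4 conditions the difference was 1.28 ± 0.21 (adjusted p = 0.00181), and it was called under all 40 alternative settings tried, at 1.16 to 1.52. Without wild type mixed reflux replicate 2 the mixed reflux difference was 3.49 (adjusted p = 4.79e-05). In bulk tissue, fewer cells of a type and less RNA per cell cannot be told apart, here or for any gene below.

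The gastric reflux call of Areg was lost without wild type gastric reflux replicate 2 (1.32, adjusted p = 0.0826) or replicate 3 (1.49, 0.0559), and with scan day as a block (1.86, 0.782). Without Nrf2-/- gastric reflux replicate 2, the array at odds with its sex label, it was 1.69 (adjusted p = 0.0201). With scan day as a block the mixed reflux difference was 2.89 (adjusted p = 0.0101). Both mixed reflux groups were scanned on the same day, and on those arrays alone the difference was 2.89 (adjusted p = 0.0586).

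Reflux moved Areg in both genotypes. Duodenal reflux raised it 8.64-fold in Nrf2-/- (3.11 ± 0.38, adjusted p = 6.33e-05 by limma) and 4.00-fold in wild type (2.00 ± 0.38, 0.00335), each against no reflux in the same genotype. Mixed reflux raised it 9.97-fold in Nrf2-/- (3.32 ± 0.54, adjusted p = 0.0016), while the difference in wild type was 0.25 ± 0.38 (0.875). The response to mixed reflux was greater in Nrf2-/- than in wild type by 3.07 ± 0.66 (adjusted p = 0.0323). That difference of responses was lost without any 1 of 7 arrays (wild type without reflux replicate 1 or 2, wild type mixed reflux replicate 1 or 3, or any Nrf2-/- array without reflux), at 2.59 to 3.17 with adjusted p of 0.0557 to 0.0786. It was also lost with scan day as a block (2.50, 0.264) and without both arrays of slide 1 (2.64, 0.205), and was kept under 15 of 28 alternatives in all. Gastric reflux went the other way in wild type, at -1.37 ± 0.38, short of the threshold (0.0525), and the value in Nrf2-/- was 0.27 ± 0.38 (0.757). With scan day as a block, the wild type duodenal difference was 2.83 with an adjusted p of 0.547, and the Nrf2-/- duodenal difference was 3.38 (0.00751).

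From high to low, the group means of Areg were 3.60 in Nrf2-/- mixed, 3.39 in Nrf2-/- duodenal, 2.46 in wild type duodenal, 0.71 in wild type mixed, 0.56 in Nrf2-/- gastric, 0.46 in wild type without reflux, 0.28 in Nrf2-/- without reflux and -0.91 in wild type gastric reflux. Neighbours in that order separated only between Nrf2-/- duodenal and wild type duodenal, between wild type duodenal and wild type mixed, and between Nrf2-/- without reflux and wild type gastric reflux. The group means spanned 4.51, against a pooled SD within groups of 0.50.

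Hbegf encodes heparin-binding EGF, a membrane-anchored ligand that keratinocytes shed at wound edges. Its ratio under gastric reflux was 1.18, 0.35 and 1.02 in Nrf2-/-, against -0.36, -0.67 and -0.65 in wild type. Under duodenal reflux it was 1.80, 3.02 and 1.71 in Nrf2-/-, against 0.88, 1.00 and 0.94 in wild type, and under mixed reflux 2.29, 2.25 and 2.26 in Nrf2-/-, against 0.56, 0.97 and 0.51 in wild type. Without reflux it was 0.63, 0.43 and 0.67 in Nrf2-/-, against -0.04 and -0.20 in wild type, where replicate 1 has no value. In each of the 4 conditions every Nrf2-/- array lay above every wild type array, and the highest value of all was Nrf2-/- duodenal reflux replicate 2, one of the arrays with low Cy5.

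Hbegf was 2.67-fold higher in Nrf2-/- than in wild type under gastric reflux (1.41 ± 0.28, adjusted p = 0.00555 by limma), 2.35-fold under duodenal reflux (1.23 ± 0.28, 0.0336) and 3.00-fold under mixed reflux (1.59 ± 0.40, 0.0368). Without reflux the difference was 0.70 ± 0.31 (adjusted p = 0.624). In the mean of the 4 conditions it was 1.23 ± 0.16 (adjusted p = 0.000339), called under all 40 alternatives at 1.09 to 1.45. Without both low-Cy5 arrays the duodenal difference was 0.81 (adjusted p = 0.0263). The duodenal call was lost without any wild type duodenal array (1.20 to 1.26, adjusted p of 0.106 to 0.130) or without Nrf2-/- duodenal reflux replicate 2 (0.81, 0.0823). The mixed reflux call was lost without wild type mixed reflux replicate 1 (1.53, 0.0926) or replicate 3 (1.50, 0.105). With scan day as a block, adjusted p was 0.782 with gastric, 0.0532 with duodenal and 0.0612 with mixed reflux, and 0.032 for the mean of the 4 conditions (1.21).

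Against no reflux, Hbegf rose 3.02-fold under duodenal reflux in Nrf2-/- (1.60 ± 0.28, adjusted p = 0.00118) and 3.22-fold under mixed reflux in Nrf2-/- (1.69 ± 0.40, 0.0205). It rose 2.08-fold under duodenal reflux in wild type (1.06 ± 0.31, 0.0407), a call lost without any 1 of the 5 arrays that measured it in these groups. The mixed reflux call in Nrf2-/- was lost without Nrf2-/- without reflux replicate 2 (1.61, 0.0603). None of these 3 calls was kept with scan day as a block: the differences were 1.50 under duodenal (0.0765) and 1.59 under mixed reflux (0.204) in Nrf2-/-, and 1.00 under duodenal reflux in wild type (0.9999). The differences of the responses between genotypes did not pass: 0.72 ± 0.42 with gastric, 0.54 ± 0.42 with duodenal and 0.89 ± 0.50 with mixed reflux. Wild type gastric reflux was the lowest group, at -0.56 ± 0.17 (SD, n = 3), and wild type without reflux the next, at -0.12. Both lay apart from all higher groups, whose order was Nrf2-/- mixed (2.27), Nrf2-/- duodenal (2.18), wild type duodenal (0.94), Nrf2-/- gastric (0.85), wild type mixed (0.68) and Nrf2-/- without reflux (0.58). Of those, only Nrf2-/- duodenal and wild type duodenal did not overlap as neighbours.

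**Figure D2:**
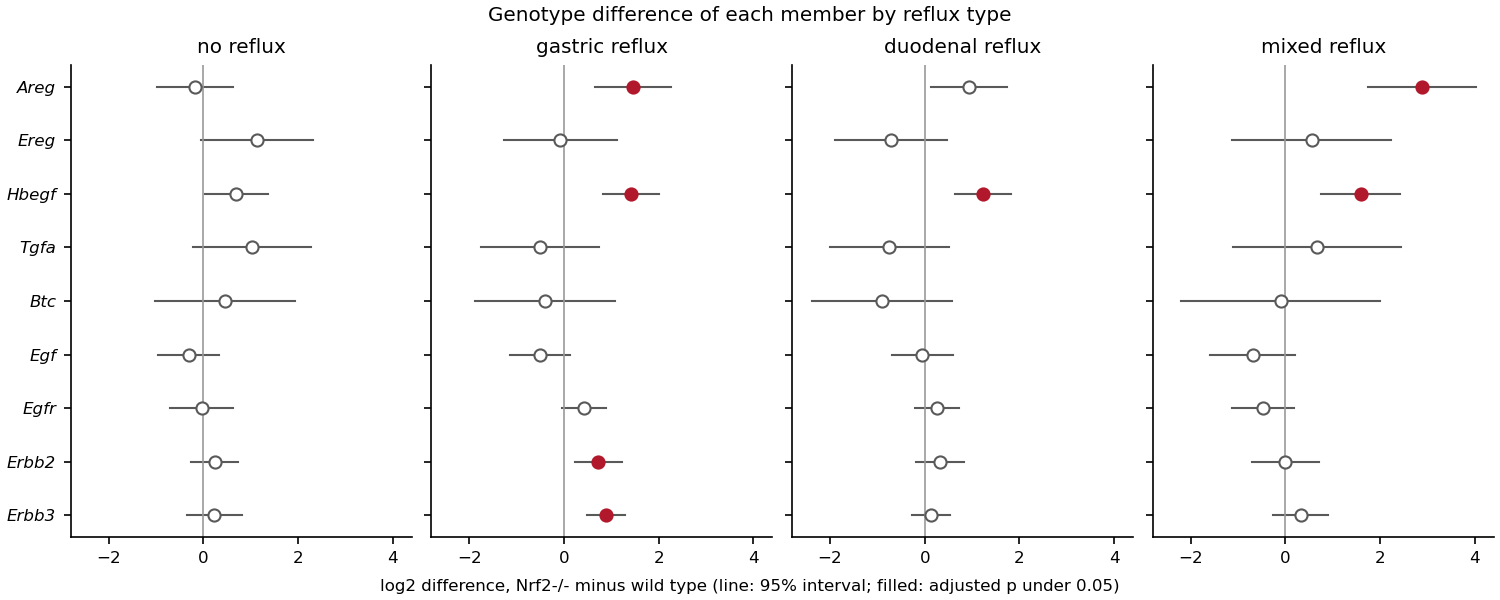
Log2 difference Nrf2-/- minus wild type (horizontal axis) of each member in the 4 conditions, with its 95% interval. Filled points passed an adjusted p of 0.05. Hbegf is to the right of 0 in every condition, by 0.70 to 1.59, and Areg is at -0.18 without reflux and at 2.89 under mixed reflux.

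Ereg, Tgfa and Btc behaved as a trio and did not pass the test in any comparison. Ereg encodes epiregulin, which lies next to Areg on chromosome 5, Tgfa the ligand that keratinocytes make for themselves, and Btc betacellulin. Ereg was 1.57, 2.01 and 2.22 in Nrf2-/- without reflux, against 1.57, 0.29 and 0.55 in wild type, and the 2 groups met at 1.57. Tgfa was 3.21, 3.37 and 3.47 in Nrf2-/- without reflux, against 2.87, 1.78 and 2.33 in wild type, with no overlap. The differences were 1.13 ± 0.56 for Ereg (adjusted p = 0.657 by limma), 1.02 ± 0.59 for Tgfa (0.722) and 0.45 ± 0.70 for Btc (0.916).

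Under gastric and duodenal reflux the spread of the trio in Nrf2-/- came from the 2 arrays with low Cy5. Ereg read -0.62, 1.83 and 2.09 in Nrf2-/- gastric reflux, against 1.94, 0.95 and 0.63 in wild type, and 1.53, 0.28 and 1.64 in Nrf2-/- duodenal reflux, against 1.81, 1.88 and 1.87 in wild type. Tgfa read 0.59, 3.76 and 3.37 in Nrf2-/- gastric reflux, against 3.59, 2.97 and 2.67 in wild type, and 2.81, 1.44 and 2.94 in Nrf2-/- duodenal reflux, against 3.14, 3.13 and 3.16 in wild type. Btc read -0.14, 3.58 and 2.65 in Nrf2-/- gastric reflux, against 3.05, 2.23 and 2.03 in wild type. On each of these 3 genes Nrf2-/- gastric reflux replicate 1 was far below its group, and Nrf2-/- duodenal reflux replicate 2, where Btc was 0.72 beside 2.68 and 2.69, was too. All 3 were noisy, with a pooled SD within groups of 0.75 for Ereg, 0.79 for Tgfa and 0.94 for Btc. Groups without those arrays spread as well: the SD of Ereg was 0.68 in both wild type without reflux and wild type gastric reflux, and that of Btc 0.68 in wild type mixed reflux.

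Without those 2 arrays the trio gave calls it did not give with them. This setting takes low values out of Nrf2-/- groups only, while wild type without reflux replicate 2 (median Cy5 81.8) was kept. In the mean of the 4 conditions Ereg was then higher in Nrf2-/- by 0.55 (adjusted p = 0.0444 by limma) and Tgfa by 0.48 (0.036), while Btc was at 0.20 (0.506). Duodenal reflux in wild type, which holds neither array, then raised Ereg by 1.05 (0.0287), Tgfa by 0.81 (0.0372) and Btc by 1.10 (0.0339), since the shared estimate of the spread was smaller. With the low-Cy5 arrays kept, the same differences had adjusted p of 0.262, 0.427 and 0.36. Wild type duodenal reflux and wild type without reflux share no scan day, so scan day and reflux cannot be told apart in these calls. The means over 4 conditions with all arrays were 0.23 ± 0.31 for Ereg, 0.11 ± 0.33 for Tgfa and -0.24 ± 0.39 for Btc.

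Under mixed reflux the trio varied little between groups. Ereg was 2.05, 2.10 and 2.12 in Nrf2-/-, against 1.53, 1.77 and 1.30 in wild type. Tgfa was 3.60, 3.65 and 3.67 in Nrf2-/-, against 2.97, 3.36 and 2.58 in wild type. Neither gene's groups overlapped, but the Nrf2-/- arrays count as 1 sample, so this separation carries little weight. The differences were 0.55 ± 0.79 and 0.67 ± 0.84 (adjusted p = 0.791 and 0.754). Btc was 2.55, 2.74 and 2.66 in Nrf2-/- against 3.20, 3.09 and 1.97 in wild type, and its group means overlapped with their neighbours throughout the order, from 2.93 in wild type duodenal reflux to 1.82 in wild type without reflux. The group means of Ereg ran from 2.09 in Nrf2-/- mixed reflux to 0.80 in wild type without reflux, and those of Tgfa from 3.64 in Nrf2-/- mixed reflux to 2.33 in wild type without reflux.

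Over the 22 samples Ereg correlated with Tgfa at r = 0.94 and with Btc at 0.85, and Tgfa with Btc at 0.89. Within groups, after each group's mean was removed, the values were 0.96, 0.90 and 0.95. Without the 2 low-Cy5 arrays they were 0.88, 0.67 and 0.70 over 20 samples. The samples share the arrays and the reference RNA, and the values are a description. Squamous markers correlated with Tgfa at -0.74 and with Ereg at -0.58, and basal keratinocyte markers with Tgfa at -0.71 (20 samples each), while mast cell markers correlated with Ereg at 0.66 and with Tgfa at 0.69 (22 samples). The part of these cells in the levels was not tested.

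**Figure D3:**
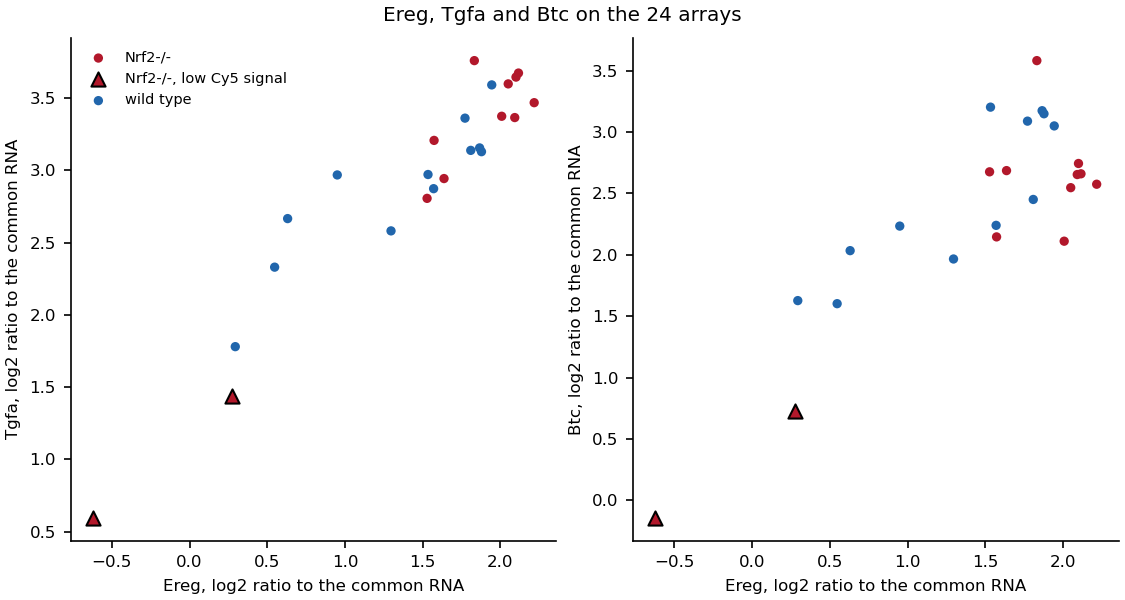
Log2 ratio of Tgfa and of Btc (vertical axes) against that of Ereg (horizontal axes) on the 24 arrays. Triangles mark Nrf2-/- gastric reflux replicate 1 and Nrf2-/- duodenal reflux replicate 2, which lie lowest for Tgfa, at 0.59 and 1.44.

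Egf, the family's namesake and a ligand of Egfr, tended to be high in groups where Areg was low. Under gastric reflux it was 3.65, 3.71 and 2.61 in Nrf2-/-, against 3.20, 4.26 and 4.02 in wild type. Under duodenal reflux it was 2.03, 2.74 and 2.00 in Nrf2-/-, against 2.16, 2.43 and 2.33 in wild type. The genotypes overlapped in both, and the gastric reflux groups lay above most duodenal reflux arrays. Under mixed reflux Egf was 2.49, 2.49 and 2.51 in Nrf2-/-, against 3.46, 3.10 and 3.02 in wild type, with no overlap, and without reflux it was 2.65, 2.53 and 2.77 in Nrf2-/-, against 2.62, 2.96 and 3.29 in wild type.

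No difference in Egf passed the test. The mean over the 4 conditions was -0.39 ± 0.17 (adjusted p = 0.165 by limma), and without the 2 low-Cy5 arrays it was -0.49 (0.0399). Gastric against no reflux in wild type gave 0.87 ± 0.30 (adjusted p = 0.106), or 0.87 with 0.0449 without those arrays, and in Nrf2-/- 0.67 ± 0.30 (0.276). Duodenal against no reflux gave -0.39 ± 0.30 in Nrf2-/- (0.385) and -0.65 ± 0.30 in wild type (0.19). Its group means ran from 3.83 in wild type gastric reflux to 2.26 in Nrf2-/- duodenal reflux, and the only gaps between neighbours were around Nrf2-/- mixed reflux (2.50). Across samples Egf correlated with Areg at r = -0.74 over 22 samples (-0.81 without the 2 low-Cy5 arrays), and at -0.28 within groups.

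Among the receptors, Erbb2 and Erbb3 were higher in Nrf2-/- than in wild type under gastric reflux, and Egfr passed in no comparison. Erbb3 was 4.41, 4.21 and 4.29 in Nrf2-/- gastric reflux, against 3.63, 3.37 and 3.24 in wild type, with a wide gap between the groups. Erbb2 was 2.80, 1.91 and 2.06 in Nrf2-/- gastric reflux, against 1.79, 1.22 and 1.58 in wild type, also with no overlap, and its top value came from the low-Cy5 array. Erbb3 was 1.85-fold higher (0.89 ± 0.19, adjusted p = 0.00842 by limma) and Erbb2 1.65-fold higher (0.73 ± 0.24, 0.044).

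The Erbb2 call was kept under 8 of 22 alternatives. It was lost, among others, without wild type gastric reflux replicate 2 (0.57, adjusted p = 0.187) or 3 (0.75, 0.104), without Nrf2-/- gastric reflux replicate 1 (0.45, 0.139), and without both low-Cy5 arrays (0.45, 0.0682). That of Erbb3 held without each array in turn. With scan day as a block Erbb2 was at 0.78 (0.79) and Erbb3 at 0.49 (0.80). Both calls rest on 1 probe for each receptor: the other Erbb2 probe was at -0.32 ± 0.34 in the same comparison, and the other 4 Erbb3 probes, above background on 10 to 22 arrays, were at -0.19, 0.04, 0.18 and -0.09. The mean of all probes of a gene gave neither call. Without Nrf2-/- gastric reflux replicate 2 the values were 0.90 for Erbb2 (0.032) and 0.93 for Erbb3 (0.0183), and Egfr passed too, at 0.66 (0.0498).

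Elsewhere the receptors differed less. Averaged over the 4 conditions Erbb3 was at 0.39 ± 0.12 (adjusted p = 0.0512 by limma) and Erbb2 at 0.32 ± 0.13 (0.145). Erbb2 was 2.52, 3.21 and 2.51 in Nrf2-/- duodenal reflux, against 2.46, 2.36 and 2.46 in wild type, every Nrf2-/- array above every wild type one, but the difference was 0.32 ± 0.24 (0.487). Against no reflux, duodenal reflux gave 0.66 ± 0.24 for Erbb2 in Nrf2-/- (0.0583) and 0.58 ± 0.24 in wild type (0.134). Wild type gastric reflux held the lowest group mean of Erbb2 (1.53), of Erbb3 (3.42) and of Egfr (0.99). The highest were Nrf2-/- duodenal reflux for Erbb2 (2.75) and Nrf2-/- mixed reflux for Erbb3 (4.56). The other Erbb2 probe ordered the groups differently, with its lowest mean in Nrf2-/- duodenal reflux (0.81) and 1.49 in wild type gastric reflux.

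Egfr, the receptor that binds most of these ligands, had the narrowest range of the 9, with group means that spanned 0.56 against a pooled SD of 0.27. Under gastric reflux it was 1.86, 0.95 and 1.44 in Nrf2-/-, against 1.27, 0.97 and 0.74 in wild type, and the groups overlapped (0.43 ± 0.22, adjusted p = 0.179 by limma). Under mixed reflux it was 1.08, 1.05 and 1.05 in Nrf2-/-, against 1.60, 1.39 and 1.62 in wild type, with no overlap (-0.48 ± 0.31, 0.475). Under duodenal reflux it was 1.14, 1.82 and 1.18 in Nrf2-/-, against 1.11, 1.19 and 1.05 in wild type, which overlapped. Without reflux it was 1.54, 1.48 and 1.52 in Nrf2-/-, against 1.55 on the only wild type array that measured it. The same array alone measured Erbb3 in that group, so comparisons of both genes with wild type without reflux rest on 1 array there.

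**Figure D4:**
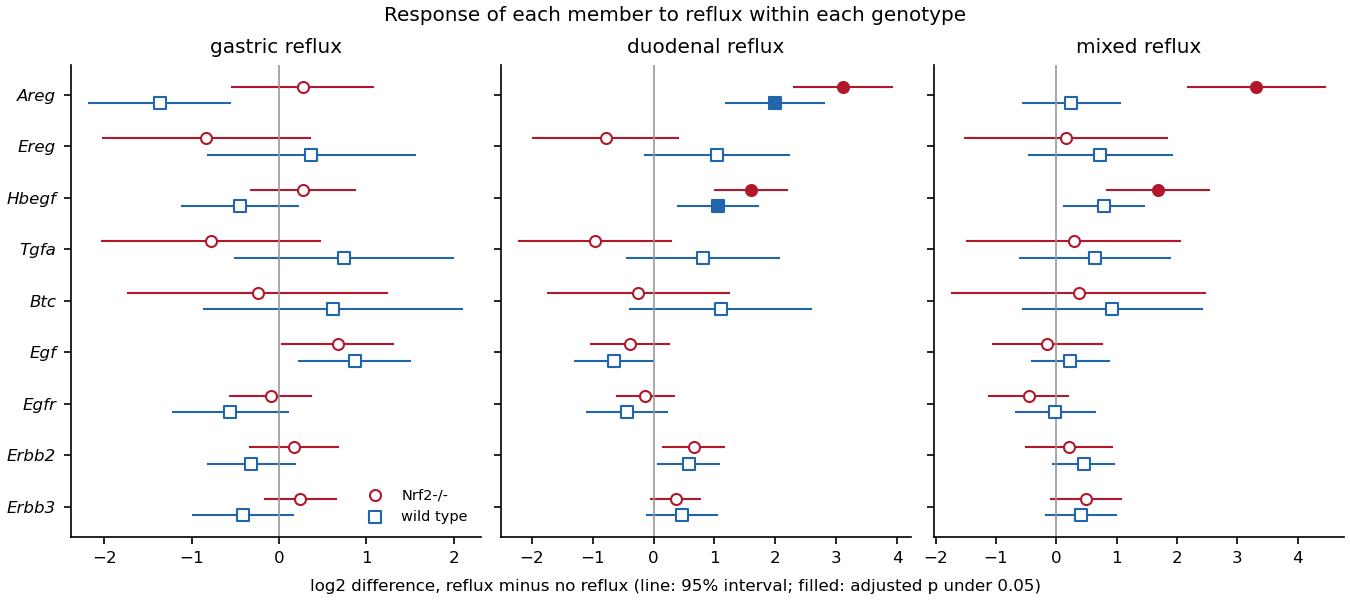
Log2 difference of each reflux type from no reflux (horizontal axes), with 95% intervals, for the 9 members, Nrf2-/- above wild type. Filled points passed an adjusted p of 0.05. Areg is at 3.11 in Nrf2-/- and 2.00 in wild type under duodenal reflux, and at 3.32 in Nrf2-/- and 0.25 in wild type under mixed reflux.

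Of 6 further family genes outside the members (Epgn, the neuregulins and Erbb4), 5 were on the array and 3 were tested, and Epgn and Nrg1 moved with Areg. Epgn, or epigen, is a ligand of Egfr whose gene lies in the same stretch of chromosome 5 (its probe is at 91464119 to 91464178, mm9). Nrg1, or neuregulin 1, binds Erbb3. Epgn was 5.58, 5.85 and 5.73 in Nrf2-/- duodenal reflux, against 4.60, 4.69 and 4.56 in wild type, and 5.87, 5.79 and 5.61 in Nrf2-/- mixed reflux, against 1.37, 4.32 and 1.09 in wild type. Without reflux it was 0.94, 1.07 and 1.20 in Nrf2-/-, against 0.64, 0.79 and 1.03 in wild type, so both duodenal groups and Nrf2-/- mixed reflux lay far above the rest. The high wild type mixed reflux array was replicate 2, as for Areg.

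By limma's test Epgn rose under duodenal reflux by 4.66 ± 0.54 in Nrf2-/- (adjusted p = 4.01e-05) and by 3.80 ± 0.54 in wild type (0.000353), and under mixed reflux by 4.69 ± 0.76 in Nrf2-/- (0.00153). Between genotypes it was higher in Nrf2-/- under mixed reflux by 3.49 ± 0.76 (0.0163), a call lost without wild type mixed reflux replicate 1 (3.05, 0.0532) and stronger without replicate 2 (4.52, 2.75e-07). Nrg1 averaged 0.57 in Nrf2-/- mixed reflux, against -1.90 ± 0.67 (SD, n = 3) in wild type, and was higher in Nrf2-/- by 2.46 ± 0.38 (0.00195). Duodenal reflux raised Nrg1 by 1.90 ± 0.27 in Nrf2-/- (0.000209) and by 1.03 ± 0.27 in wild type (0.0225), the wild type call being lost without 5 single arrays in turn (0.98 to 1.07, adjusted p of 0.0539 to 0.0805). The mixed reflux response of Nrg1 was greater in Nrf2-/- by 2.64 ± 0.47 (0.016), but not with scan day as a block (2.52, 0.103) or without slide 1 (2.53, 0.0833). The wild type duodenal rises of Epgn (3.40, 0.821) and Nrg1 (1.16, 0.9999) were lost with scan day as a block as well, whereas the other calls of both genes given above were kept.

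The genes that free the ligands showed few calls. Of 14 listed, 12 were tested, and duodenal reflux in Nrf2-/- raised 3 and lowered 1 of them, beside 13.5% of all genes higher and 19.8% called in either direction. The protease Adam8 rose by 1.32 (adjusted p = 0.00642 by limma), Rhbdf2, which carries Adam17 to the cell surface, by 1.26 (0.00767), and the precursor-cutting protease Furin by 0.81 (0.00296). Timp3, an inhibitor of Adam17, differed by -2.13 there (0.00836), a call lost without Nrf2-/- without reflux replicate 2 (-2.04, 0.0623). Adam8 (1.35, 0.115), Rhbdf2 (1.15, 0.197) and Furin (0.78, 0.0954) lost their calls with scan day as a block and Timp3 kept its own (-2.13, 0.037). Timp3 was also lower in Nrf2-/- than in wild type under gastric reflux, by -2.79 ± 0.44 (0.00246), a call lost with scan day as a block (-2.79, 0.0675). In wild type, duodenal reflux raised 1 of 12, beside 7.35% of all genes higher and 10.3% called in either direction. This was Adam10, at 0.92 (0.0246), lost without 4 single arrays in turn (0.86 to 0.96, 0.0624 to 0.0955) and with scan day as a block (0.53, 0.9999).

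Downstream, 25 of 26 listed relay genes were tested, and 5 were lower and 0 higher in Nrf2-/- than in wild type under gastric reflux, beside 17.6% of all genes called in either direction. They included Ptpn11, the phosphatase that passes receptor signals to Ras (-0.90, adjusted p = 0.0105 by limma), Akt2 (-0.77, 0.0163), and Pik3r1, the regulatory subunit of PI3 kinase (-0.66, 0.00744). Without the 2 low-Cy5 arrays the counts were 9 lower and 3 higher, and with scan day as a block 0. Ptpn11 and Akt2 lost their calls without wild type gastric reflux replicate 2 or 3, at -0.81 to -0.71 (adjusted p of 0.0531 to 0.0614) and at -0.68 to -0.63 (0.0808 to 0.0864). Duodenal reflux in wild type raised 3 (7.35% of all genes higher), among them Pik3r1 by 0.84 (0.00131), and 0 were called with scan day as a block or without slide 1. The levels of the relay genes averaged 0.28 to 0.44 in all 8 groups.

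Of 23 listed feedback inhibitors, 21 were tested, and in the mean of the 4 conditions 5 were higher and 0 lower in Nrf2-/-, beside 5.84% of all genes higher and 8.17% called in either direction. Blocking on scan day left 0 called, and without the 2 low-Cy5 arrays 7 were higher and 3 lower. The 5 included Dusp6, the phosphatase that turns off ERK (0.78), Dusp1 (0.72) and the cytokine signal inhibitor Socs3 (0.64). Socs3 was higher in Nrf2-/- under duodenal reflux by 1.33 ± 0.20 (adjusted p = 0.00204 by limma) and under mixed reflux by 1.26 ± 0.28 (0.0175). The mixed reflux call was lost without wild type mixed reflux replicate 1 or 3 (1.17 to 1.21, 0.0557 to 0.0567). Against no reflux, duodenal reflux in Nrf2-/- raised 6 and lowered 5 (13.5% of all genes higher, 19.8% called in either direction), with Dusp2 up by 2.22 ± 0.27 (6.33e-05) and Socs3 by 1.64 (4.84e-05), and in wild type it raised 4 and lowered 1 (7.35% and 10.3%), with Dusp2 up by 1.70 (0.000919). Mixed reflux in Nrf2-/- raised 3 and lowered 0 (3.41% and 4.71%). The calls with scan day as a block were 2 higher and 0 lower for duodenal reflux in Nrf2-/-, 0 for duodenal reflux in wild type and 1 for mixed reflux in Nrf2-/-, and without slide 1 the wild type count was 1.

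The early response genes of the ERK cascade are those that cells switch on soon after a growth factor binds. In the main fit they rose wherever they were called and fell in no comparison. All 20 were tested, and duodenal reflux raised 12 in Nrf2-/- and 3 in wild type, beside 13.5% and 7.35% of all genes higher. Mixed reflux raised 6 in Nrf2-/- (3.41% of all genes) and 0 in wild type, where only 0.0536% of all genes were called in either direction. Over the 4 conditions 7 were higher in Nrf2-/-, beside 5.84% of all genes, and the median of the list was 0.40, beside 0.04 over all genes. Its median under duodenal reflux in Nrf2-/- was 0.86, beside 0.08 over all genes. Some alternatives did call falls. Without the low-Cy5 arrays, gastric against no reflux in wild type gave 1 higher and 2 lower. Between genotypes without reflux, as many as 9 were called under an alternative, while none called more than 3 higher, so some were lower.

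Among these genes, Fos rose by 2.34 ± 0.55 under duodenal (adjusted p = 0.00762 by limma) and by 3.76 ± 0.78 under mixed reflux (0.00901) in Nrf2-/-. The urokinase gene Plau rose by 2.20 (0.000225) and the transcription factor gene Etv4 by 1.54 (4.33e-05) under duodenal reflux in Nrf2-/-, and Egr2 rose by 2.92 under mixed reflux (0.00807). In wild type under duodenal reflux Plau rose by 1.47 (0.00752). Between genotypes, Fos (1.34 ± 0.31, 0.0141), Ier3 (0.77, 0.00064), the urokinase receptor gene Plaur (0.61, 0.00609) and Atf3 (0.56, 0.013) were higher in Nrf2-/- in the mean of the 4 conditions, and Ier3 was higher under mixed reflux by 1.38 (0.00963). These calls held without each array in turn. A fit with scan day as a block called 4 genes under duodenal and 1 under mixed reflux in Nrf2-/-, 0 under duodenal reflux in wild type and 1 in the mean of the 4 conditions. Etv4 is the early response gene whose response differed by genotype under 2 reflux types, by 1.43 ± 0.26 under duodenal (0.0283) and by 1.83 ± 0.31 under mixed reflux (0.0118). The duodenal call was lost without 8 single arrays in turn (1.29 to 1.49, adjusted p of 0.0619 to 0.0957). Neither was called with scan day as a block (1.09, 0.538 and 1.50, 0.107), nor without slide 1 (1.13, 0.388 and 1.54, 0.0807).

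Neutrophil genes moved with Areg and Hbegf. The mean log2 ratio of 6 neutrophil genes was 5.10 in Nrf2-/- mixed reflux and 2.82 in wild type mixed reflux, 4.82 in Nrf2-/- duodenal reflux and 3.63 in wild type duodenal reflux, 2.30 in Nrf2-/- gastric reflux and 1.27 in wild type gastric reflux, and 1.66 in Nrf2-/- and 0.67 in wild type without reflux. Under each reflux type no array overlapped between the genotypes. This is a description only, since Csf3r, Retnlg and Mmp8 were above background on 0 arrays of wild type gastric reflux. Each array's mean took only the genes with a value on it, and wild type without reflux lacked some values. Its arrays read 0.52 and 0.33 on slide 1 (replicates 1 and 2) and 1.18 in replicate 3. The 0.67 thus does not rest on the same 6 genes throughout, and its gap to 1.66 cannot be read as a genotype difference. Across samples, these arrays among them where measured, the list's mean correlated with Areg at r = 0.89 (22 samples) and with Hbegf at 0.87 (21 samples). Wild type mixed reflux replicate 2, high for Areg, Epgn and Nrg1, had the highest value of its group for these genes too, 3.93 against 2.23 for the lowest.

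Csf3r, Retnlg and Mmp8, which neutrophils express, were above background on 0 arrays of Nrf2-/- without reflux, wild type without reflux and wild type gastric reflux. They were above it on all 3 arrays of both duodenal reflux groups and of Nrf2-/- mixed reflux. In Nrf2-/- gastric reflux Csf3r and Retnlg were above it on 2 arrays and Mmp8 on 1, and in wild type mixed reflux each was on 1. The 6 genes include S100a8 and S100a9, which inflamed squamous epithelium also makes. Cxcr2, a chemokine receptor on the same list, was above background on every array and ran otherwise: it averaged 3.09 in Nrf2-/- duodenal reflux, against 3.43 in wild type duodenal reflux, and 3.34 in Nrf2-/- without reflux. Csf3r, Retnlg and Mmp8 passed the filter on dim probes through the groups where they are high, so no count of calls is given for the list. For the same reason the separation of its means and its correlations with Areg and Hbegf are no test. Their part in the Areg and Hbegf differences was not tested.

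**Figure D5:**
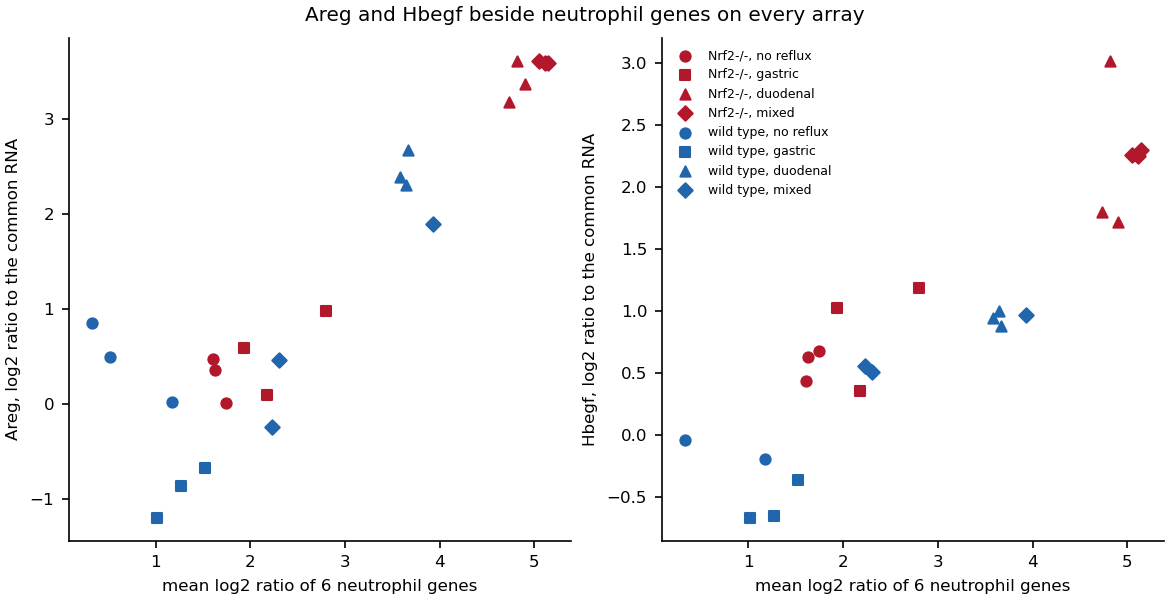
Log2 ratio of Areg and of Hbegf (vertical axes) against the mean log2 ratio of 6 neutrophil genes (horizontal axes) on each array, by group. Genes without a value on an array are left out of its mean. The Nrf2-/- duodenal and mixed reflux arrays lie at the upper right of both panels, with neutrophil means of 4.73 to 5.15.

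The epithelial and muscle markers were compared beside the receptors. The basal keratinocyte markers averaged 4.26 in Nrf2-/- and 3.78 in wild type under gastric reflux, and 1 of 8 was called higher. The squamous markers averaged 5.02 in Nrf2-/- and 4.46 in wild type, with 2 of 9 called higher, and the smooth muscle markers 2.62 in Nrf2-/- and 3.11 in wild type, with 1 of 8 called lower. Of all genes 10.5% were called higher and 17.6% in either direction there, so these few calls are near the background. Over 20 samples the basal markers correlated with Erbb2 at r = 0.91 and with Erbb3 at 0.69, and the smooth muscle markers with Erbb3 at -0.76 and with Areg at -0.71. Their part in the receptor differences was not tested. Smooth muscle markers were at 1.15 in Nrf2-/- mixed reflux, against 2.21 in wild type mixed reflux.

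Among themselves, Areg and Hbegf correlated at r = 0.88 over 21 samples and at 0.50 within groups, and Erbb2 and Erbb3 at 0.84 over 20 samples and 0.62 within groups. Across all tested genes measured in at least 18 samples, the pattern of Areg was by Pearson's r most like that of Entpd7 (0.960 over 22 samples), Urah (0.959 over 20) and B3galt5 (0.959 over 22). That of Hbegf was most like Elf3 (0.955 over 21) and Plet1 (0.952 over 21). The nearest to Erbb2 were Rnf126 (0.958 over 21) and Rce1 (0.957 over 20), and to Erbb3 Mark3 (0.953 over 20) and Strn4 (0.952 over 20). The order depends on the measure: by Spearman's rho Entpd7 and B3galt5 ranked 1 and 3 for Areg, but Urah ranked 136, Elf3 and Plet1 56 and 81 for Hbegf, Rnf126 and Rce1 33 and 27 for Erbb2, and Mark3 and Strn4 23 and 4 for Erbb3. These are descriptions over samples that share groups and a reference.

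Where a gene had several probes they did not always move together. The second Tgfa probe was higher in Nrf2-/- in the mean of the 4 conditions by 0.46 ± 0.12 (adjusted p = 0.0287 by limma over all probes), while the main Tgfa probe gave 0.11 ± 0.33. One further Egfr probe was lower in wild type gastric reflux than in wild type without reflux, by -0.73 ± 0.20 (0.0483), and lower in Nrf2-/- duodenal reflux than in Nrf2-/- without reflux, by -0.65 ± 0.20 (0.0295). Egf, Erbb2, Tgfa and 2 Egfr probes were printed on 10 spots each, and the median SD between the spots of an array was 0.05 to 0.12, well under the SD between arrays of a group, 0.23 to 0.79.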

How the data were processed

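RNA from snap-frozen oesophagus was amplified and hybridised to 2-colour Agilent mouse arrays, per the labels' protocols. The deposited scanner files hold each spot's mean intensity and local background in Cy5 and Cy3 as linear values, per the file headers, and a log10 ratio made by the scanner software, per the file headers. The authors also deposited log ratios of their own normalization. Its slope on the scanner's log10 ratio was 2.68 to 3.14, so these deposited values were read as log2, with column medians of 0 to 0.069 and with their centring not given in the sources used here. The file headers name Feature Extraction 10.5.1.1 and build mm7 on slide 1 and 10.7.3.1 and mm9 elsewhere. Version 9.1 is named in the submitters' processing notes.

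Ratios were computed from the intensities in R 4.3.3 with limma 3.58.1 (files read by data.table, version 1.17.8), by normexp background correction (offset 50, local backgrounds marked as outliers replaced by the array median), loess within each array with the 1639 control spots at weight 0, and outlier spots left out (13.0% and 11.8% on the 2 arrays of slide 1, 0.293% to 0.659% elsewhere). Repeat spots were averaged. The brightest probe stood for a gene, and a gene was tested when it was well above background on every array of at least 1 group. Names came from RefSeq genes: accessions named 26918 probes, symbols 5082 and synonyms 817, while 8357 keep the file's name. The dye reference cancels in differences between groups.

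One limma model (lmFit and eBayes) held a mean for each group over 22 samples (14 residual and 2.91 prior degrees of freedom), with Benjamini-Hochberg adjustment over all tested genes and a threshold of 0.05. A value after ± is the standard error unless called an SD. The labels call the arrays biological replicates. Nothing says which animals they came from, so the p-values measure the spread between these samples. Alternatives were other background, normalization, filter and probe rules, scan day, slide and replicate number as blocks, leaving out each array, and the authors' values. Using each probe on its own and leaving out both slide 1 arrays were chosen after seeing the data. The number of arrays limits the precision.

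The members, the gene lists, the treatment of the 3 Nrf2-/- mixed reflux arrays and the tests were chosen with earlier results of these data known. Named genes are all members, up to 4 called genes with the largest difference for each list and comparison (not all are printed), and the 3 genes most like each called member. The script was tested on simulated data. Same-numbered replicates did not deviate together (median correlation 0.018 over 63 pairs), so no pairing was used.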

Additional observations from a re-analysis of the deposited data

Results flagged for a closer look

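The response to reflux differed between the genotypes, by a test of the difference itself, for 5 gene and reflux combinations among the genes named here. Under mixed reflux, Areg responded more strongly in Nrf2-/- than in wild type by 3.07 ± 0.66 (adjusted p = 0.0323 by limma), Nrg1 by 2.64 ± 0.47 (0.016) and Etv4 by 1.83 ± 0.31 (0.0118). Under duodenal reflux, Etv4 responded more strongly in Nrf2-/- by 1.43 ± 0.26 (0.0283), a call lost without 8 single arrays in turn (1.29 to 1.49, 0.0619 to 0.0957). Under gastric reflux, Plau did so by 1.82 ± 0.45 (0.0486), a call lost without 8 single arrays in turn (1.55 to 2.00, 0.0572 to 0.135). Among the mixed reflux calls, that of Areg was lost without 7 single arrays in turn (2.59 to 3.17, 0.0557 to 0.0786), while those of Nrg1 and Etv4 held without each array in turn. None of the 5 was called with scan day as a block: Areg was at 2.50 (0.264), Nrg1 at 2.52 (0.103), Etv4 at 1.50 under mixed (0.107) and 1.09 under duodenal reflux (0.538), and Plau at 0.60 (0.69). Without both arrays of slide 1, which belong to wild type without reflux, none was called either, with adjusted p of 0.0807 for Etv4 under mixed reflux to 0.388 for Etv4 under duodenal reflux. The 3 mixed reflux differences rest on a single averaged sample of Nrf2-/- mixed reflux, and all 5 use the same groups without reflux.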

How the results depend on the processing

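Over 3143 values of members under alternatives, 3004 stayed on their side of the threshold, 81 lost the call and 58 gained one. Direction was compared only where a value was called in the main fit or the alternative, and 0 of those turned. Values called in neither counted as kept whatever their sign. Of 1930 values of named pathway genes, all called in the main fit, 1570 kept call and direction, 357 lost the call and 3 turned. Those that turned included Nrg1 under duodenal reflux in wild type (-0.076, local background as read). Shc1 under duodenal reflux in Nrf2-/- (-0.084, median centring) and Cbl between genotypes under gastric reflux (0.024, scan day block) turned as well. The causes were not tested. The count of members called between genotypes without reflux, 0, was 3 with local background as read. Under gastric reflux, 4, it was 3, with Erbb2 lost, with local background as read, the scanner's ratio, no filter on dim probes, slide as a random block, the replicate block, without the low-Cy5 arrays or without slide 1, 2 with the mean of probes, 1 with median centring and 0 when only those groups were fitted or with the scan day block. Under duodenal reflux, 1, it was 0 with median centring, same-day arrays only, the replicate block, the scan day block, the scanner's ratio or slide as a random block. Under mixed reflux, 2, it was 1 without slide 1, with the replicate block, the scan day block, the scanner's ratio or the authors' values, and 0 with only those groups or same-day arrays. In the mean of the 4 conditions, 2, it was 6 without the low-Cy5 arrays. For gastric against no reflux in wild type, 0, it was 1 with the Nrf2-/- mixed arrays as 3 samples, the mean of probes, median centring, only those groups, the scanner's ratio or the authors' values, 2 without the low-Cy5 arrays or with outlier spots kept, and 3 with local background as read. For duodenal reflux in wild type, 2, it was 6 without the low-Cy5 arrays, 7 with local background as read or only those groups, 4 with the mean of probes, 1 without slide 1, with outlier spots kept, the replicate block, the scanner's ratio, slide as a random block or the authors' values, and 0 with the scan day block. For mixed reflux in wild type, 0, it was 3 with local background as read. In Nrf2-/-, it was 1 for duodenal reflux (2) with same-day arrays or the scan day block, and for mixed reflux (2) 0 with same-day arrays and 1 with the scan day block. For the difference of responses it was 1 under gastric and under duodenal reflux (0 each) with local background as read, and under mixed reflux (1) 0 without slide 1, with median centring, only those groups, the scan day block, the scanner's ratio or the authors' values. Leaving out 1 array gave 2 to 5 under gastric, 0 to 1 under duodenal and 1 to 2 under mixed reflux between genotypes, 2 to 3 in their mean, 0 to 2 for gastric and 1 for duodenal reflux in wild type, 1 to 2 for mixed reflux in Nrf2-/- and 0 to 1 for the mixed response difference. With the replicate number as a block, Erbb2 under gastric reflux was at 0.73 (adjusted p = 0.0598) and Hbegf under duodenal reflux at 1.23 (0.0582). The numbers did not pair the samples (correlations of -0.65 to 0.57 for same-numbered pairs). Counts of early response genes called ranged over the alternatives from 1 to 13 for duodenal and 0 to 11 for mixed reflux in Nrf2-/-, and from 1 to 14 in the mean of the 4 conditions. Dim probes limit Erbb3 most, since 4 of its 5 probes were above background on 10 to 22 arrays.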

Other observations

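A second probe named for Ereg lies on the opposite, minus strand at chromosome 5, 91480914 to 91480973 (mm9), some distance from the Ereg probe used above. It rose under duodenal reflux in Nrf2-/- by 1.06 ± 0.22 (adjusted p = 0.00316 by limma over all probes), whereas the Ereg probe itself was at -0.79 ± 0.56 there (0.343). The 2 probes of that name therefore gave opposite signs in the same comparison.

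Liver genes were detected mostly in the reflux groups. The mean log2 ratio of 5 liver genes was 3.80 in Nrf2-/- gastric reflux, 3.36 in wild type gastric reflux, 3.10 in Nrf2-/- duodenal reflux and 3.35 in wild type duodenal reflux. It was 0.88 in Nrf2-/- and 1.74 in wild type mixed reflux, and -0.03 in Nrf2-/- and 0.43 in wild type without reflux. Without reflux, 1 of 6 liver genes on the array was above background on all arrays of each genotype. The means without reflux are therefore near the floor, and most of the 5 genes passed the filter on dim probes through reflux groups. The Nrf2-/- duodenal reflux arrays ran from 1.09 to 4.16. Their part in the levels of the family was not tested.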
